A study of Drosophila melanogaster with 6 samples.

Results

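A set of 92 transcripts, out of 15473 features on the array, lay near the bottom of the measured scale in wild-type Drosophila melanogaster ovaries and at least 4-fold higher in intensity in upSET mutant ovaries. A feature was taken as a member when all 3 wild-type values were below 7 on the log2 scale, when the mutant mean exceeded the wild-type mean by at least 2, and when every mutant value lay above every wild-type value. The members were therefore chosen by the mutant and wild-type values themselves, so their differences are given below as a description, with no test. Each feature is a FlyBase transcript identifier, and its value is a deposited log2 intensity that summarises several probes. The working description of these transcripts as silent in the wild type could not be checked, because no detection calls were used here. They are called low in the wild type in what follows.

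upSET encodes a chromatin protein with a SET domain, a fold that in other proteins often methylates histones, and it is known in Drosophila for restricting the reach of open, acetylated chromatin around active promoters together with histone deacetylases. A fly ovary is a mixture of germline nurse cells, oocytes and somatic follicle cells, and many genes used in other tissues are normally kept inactive there. In RNA from whole ovaries, a gain of RNA per cell and a gain in the number of cells that make it cannot be told apart.

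Ovaries came from females that were 2 days old. The wild type was the strain OregonG, and the mutant strain carried the transposon insertion PBac{WH}CG9007e000365 in upSET, a gene that the design text calls epic. Each genotype had 3 arrays, 1 for each separate dissection, with single-colour Cy3 labelling. The mutant strain differs from OregonG in origin, so the insertion and other differences between the strains cannot be told apart, and the labels do not say whether the insertion was homozygous.

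The 6 arrays had medians between 11.2 and 11.3 and lower quartiles between 6.47 and 6.51 on the log2 scale. Gene names were found for 44 of the 15473 features, of which 2 were low in the wild type and 0 were members. The 92 members are for that reason given by identifier alone, and no role is assigned to any of them. The ovary markers, the markers of other cell types and upSET itself could not be looked up either, so neither the tissue label nor the genotype label was checked against a gene.

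The members moved from a narrow low band to a wide range of mutant levels. Their wild-type means ran from 5.51 to 6.70 with a median of 6.17, which placed them between the 1.08th and the 27.6th percentile of the wild-type arrays. Their mutant means ran from 7.94 to 13.93 with a median of 9.16. Most of them ended in the lower middle of the mutant arrays, at a median percentile of 40.9. In the mutant, 3 members had means between 7 and 8, 33 between 8 and 9, 35 between 9 and 10, 10 between 10 and 11, and 11 members lay higher. The mutant mean exceeded the median of all features, 11.23, for 8 members. In all 3 mutant arrays 75 members were above 8, 36 above 9 and 13 above 10.

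The size of the difference had a long upper tail. Its median over the members was 2.84 on the log2 scale, with quartiles of 2.48 and 3.73, where the median over all features was -0.03. These correspond to a median intensity ratio of 7.17, with quartiles of 5.58 and 13.3. The difference was at least 3 for 42 members, at least 4 for 18, at least 5 for 11 and at least 6 for 3. Intensities near the bottom of the scale may contain background signal, so these ratios are of intensities and not of transcript amounts. Across the 92 members the wild-type mean and the mutant mean were nearly unrelated (Pearson's r 0.0069, Spearman's rho 0.11), a description across transcripts measured on the same 6 arrays and cut off by the rule on both axes.

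**Figure D1:**
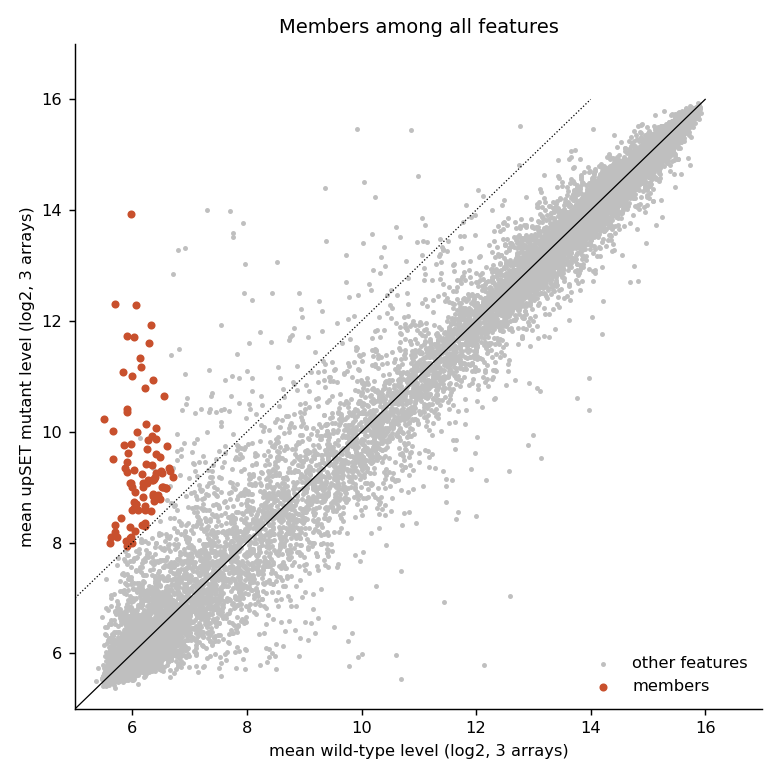
Mean level in the upSET mutant against mean level in the wild type for all 15473 features, both on the log2 scale over 3 arrays, with the 92 members in orange, the line of equality solid and a difference of 2 dotted. The members rise from wild-type means of 5.51 to 6.70 to mutant means of 7.94 to 13.93.

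FBtr0075181 had the largest difference of all features. Its wild-type values were 6.03, 5.86 and 6.03, and its mutant values were 13.93, 13.70 and 14.17. The mutant arrays lay close together and 7.66 above the highest wild-type array. The difference of means was 7.96, an intensity ratio of 249. With a mean at the 71.9th percentile of the mutant arrays, it was the highest of the 92 members there.

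Among the members FBtr0077246 and FBtr0071899 came next, with mutant means of 12.31 and 12.29. FBtr0077246 had wild-type values of 5.75, 5.67 and 5.68 and mutant values of 12.17, 12.44 and 12.32, a difference of 6.61. It was also the member with the smallest wild-type SD, 0.04 (n = 3). FBtr0071899 had wild-type values of 6.19, 6.12 and 5.88 and mutant values of 12.44, 11.90 and 12.55, a difference of 6.23. The genotypes were far apart for both, with gaps of 6.43 and 5.70 between the lowest mutant and the highest wild-type array.

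FBtr0087557 and FBtr0087558, which have consecutive identifiers, had nearly the same values. FBtr0087557 was at 6.17, 5.84 and 5.69 in the wild type and at 11.79, 11.72 and 11.68 in the mutant, a difference of 5.83. FBtr0087558 was at 6.12, 6.28 and 6.57 in the wild type and at 11.99, 12.05 and 11.73 in the mutant, a difference of 5.60. Both had small mutant SDs, 0.06 and 0.17 (n = 3).

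Other members with a difference above 5 differed more in how well their mutant arrays matched. FBtr0073204 was at 6.56, 6.17 and 6.15 in the wild type and at 11.47, 11.63 and 11.71 in the mutant. FBtr0085149 was at 6.04, 5.80 and 6.64 and then at 11.16, 11.24 and 11.09. Those 2 were even across the mutant dissections, with SDs of 0.12 and 0.08. FBtr0072048 was at 5.90, 6.10 and 5.99 and then at 11.21, 10.57 and 11.23. FBtr0082771 was at 5.93, 6.57 and 5.90 and then at 10.62, 11.59 and 11.79. Their differences were 5.31, 5.01, 5.01 and 5.20 in that order, and no mutant array came within 4 of a wild-type array for these 4 transcripts.

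FBtr0079483 and FBtr0077976 were high in the mutant but uneven between dissections. FBtr0079483 was at 5.90, 6.02 and 6.19 in the wild type and at 13.03, 9.92 and 12.17 in the mutant, with mutant replicate 2 far below the others. FBtr0077976 was at 5.66, 5.93 and 5.90 in the wild type and at 9.63, 11.67 and 11.93 in the mutant, where replicate 1 was the low one. Their differences of 5.67 and 5.24 had mutant SDs of 1.60 and 1.26 (n = 3).

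The next 9 members by difference lay between 4.73 and 3.90. FBtr0083170 had the lowest wild-type level of all members, at 5.42, 5.55 and 5.56, and mutant values of 9.98, 10.40 and 10.32. FBtr0088211 was the most even of these 9 in the mutant, at 10.45, 10.33 and 10.46 against 6.03, 5.87 and 5.84. FBtr0078867, FBtr0073006, FBtr0087552, FBtr0073975, FBtr0077047, FBtr0075502 and FBtr0080587 had mutant means of 10.94, 10.79, 10.36, 10.01, 10.64, 10.001 and 9.76. Of these 7, FBtr0077047 and FBtr0073006 varied most between the mutant arrays, with ranges of 1.11 and 1.05.

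**Figure D2:**
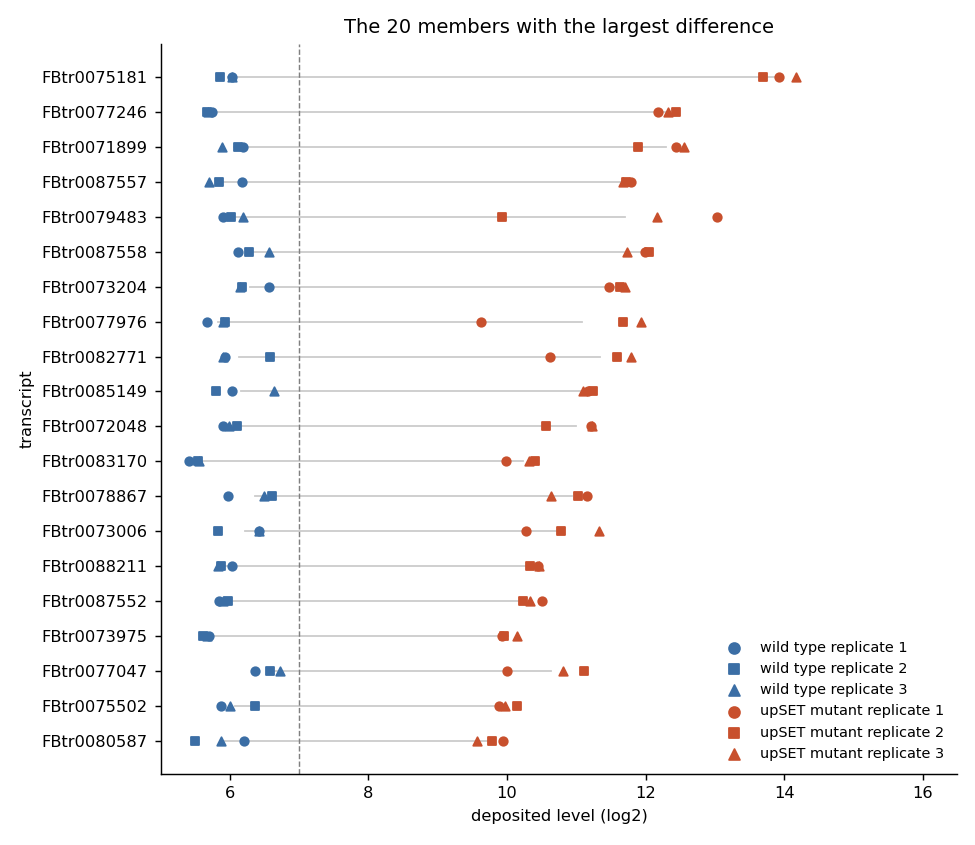
Deposited log2 level of the 20 members with the largest difference on each of the 6 arrays, with wild type in blue, upSET mutant in orange, one symbol for each replicate number and a dashed line at 7. Grey lines join the 2 group means; FBtr0079483 and FBtr0077976 show 1 mutant array far below the others.

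The members closest to the edge of the rule were separated little from features outside it. The smallest differences among members were 2.01 for FBtr0081046, 2.03 for FBtr0081031 and 2.08 for FBtr0084771. Just outside lay FBtr0080239 at 1.99, FBtr0077998 at 1.98 and FBtr0081464 at 1.97. The first 2 of those outside had even mutant values, with SDs of 0.02 and 0.19, whereas FBtr0081464 was at 6.498, 9.93 and 6.71 in the mutant and owed its mean to replicate 2.

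At the limit on the wild-type values the boundary was as thin. The highest wild-type values among members were 6.99 for FBtr0083972, 6.99 for FBtr0082335 and 6.97 for FBtr0078518. FBtr0081235, FBtr0100594 and FBtr0085936, at 7.01, 7.03 and 7.03, met the other conditions and fell outside. FBtr0100594 had mutant values of 10.39, 10.41 and 10.36 and a difference of 3.53, larger than that of most members. In all, 140 features met the other 2 conditions with at least 1 wild-type value of 7 or more, and for 25 of them the highest wild-type value was below 7.5.

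The condition of no overlap removed 1 feature. FBtr0088591 was at 5.95, 5.84 and 6.61 in the wild type and at 10.73, 6.24 and 12.71 in the mutant, so that 2 mutant arrays were high and replicate 2 was in the wild-type range. Among members the narrowest gaps between genotypes were 0.86 for FBtr0075490, 0.93 for FBtr0077220 and 1.15 for FBtr0089599. The gap was above 1 for 90 members and above 2 for 58.

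Most features that were low in the wild type stayed low in the mutant. All 3 wild-type values were below 7 for 4227 features (27.3% of the table). The members made up 2.18% of these and 0.595% of the whole table, a contrast set by the rule, which admits only low features. Each condition taken alone was commoner: every mutant value lay above every wild-type value in 15.1% of all features and 13.2% of the low ones, and a difference of at least 2 was found in 1.51% and 2.2%. The difference lay between -0.5 and 0.5 for 3630 of the 4227 (85.9%), between 0.5 and 1 for 250, between 1 and 1.5 for 99 and between 1.5 and 2 for 44. In the other direction 109 lay between -1 and -0.5 and 2 lower still, on a scale whose lowest value on any array was 5.301. The 4135 low features outside the set had a median wild-type mean of 5.97, slightly below the 6.17 of the members, and a median mutant mean of 5.92.

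All 92 members passed an adjusted p of 0.05 in limma, fitted to all 15473 features with Benjamini-Hochberg adjustment, where 8.05% of all features were called higher and 7.3% lower in the mutant. Nothing is read from that count, because the rule used the same contrast. Of the 4227 low features 347 were called higher (8.21%), so 255 called features were low in the wild type but outside the set, with differences of 0.45 to 1.99 and a median of 1.01. Another 59 low features were called lower. The mirror rule, with all mutant values below 7 and the wild type at least 2 higher without overlap, held for 28 features out of 4190 that were low in the mutant. Their differences ran from 2.02 to 6.35 in favour of the wild type, with a median of 2.47.

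The 140 features that met the conditions apart from the wild-type limit had gains of like size at a higher level. Their median difference was 2.80 and their upper quartile 3.33, against 2.84 and 3.73 for the members. Their median mutant mean was 11.47, against 9.16. No test was made between these sets, since the rule fixes the wild-type level that separates them. It also sets the same minimum difference for both, so the like size and the higher level are partly set by the rule.

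The rule acts on the spread between the mutant arrays in 2 ways: the condition of no overlap removes some uneven features, and a single high array can carry the mutant mean past the minimum. FBtr0074911 and FBtr0081031, for example, were no longer chosen without their highest mutant array. The shares below are therefore partly set by the choice of members and are given as a description. The SD over the 3 mutant arrays had a median of 0.29 among members, with quartiles of 0.16 and 0.53, and the SD over the 3 wild-type arrays a median of 0.23. Each member was set beside the other features with a mutant mean within 0.25 of its own. These had median SDs of 0.15 to 0.26, depending on level, and 55 of the 92 members lay above their own reference. In the upper tail 19 members (20.7%) had a mutant SD above that of 95% of features at like level. In the wild type 2 members did, FBtr0083972 and FBtr0079868. The rule also limits the wild-type spread of members, since each of their wild-type values must be below 7. The reference features had no such limit, so the wild-type and mutant counts are not compared.

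The 5 members with the largest mutant SD each had 1 dissection that stood apart from the others, and it was not the same one in all of them. FBtr0079483 and FBtr0077976 are described above. FBtr0077220 was at 6.53, 6.404 and 6.58 in the wild type and at 7.51, 10.08 and 10.25 in the mutant, with replicate 1 low. FBtr0074911 was at 6.71, 6.31 and 6.03 and then at 7.92, 8.28 and 10.33, with replicate 3 high. FBtr0077561 was at 5.86, 6.69 and 6.67 and then at 10.56, 8.33 and 8.89, with replicate 1 high. For these transcripts the mean difference describes the 3 dissections poorly.

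In 15 members (16.3%) 1 mutant array lay at least 1 away from its nearest neighbour. Among 769 other features with mutant means between 8.70 and 9.86, the interquartile range of the members, 25 did so (3.25%). Among the 140 features with higher wild-type values 10 did (7.14%). Some of the 15 had mutant means outside that band, for example FBtr0079483 at 11.71 and FBtr0081031 at 7.94. The 92 members and the 769 features are therefore not matched in level. Mutant replicate 1 was the array apart in 9 of the 15, low in 6 and high in 3. Replicate 2 was apart in 3, low in 2 of them, and replicate 3 in 3, low in 2 of them. Over all 92 members replicate 1 was the lowest mutant array for 44 (47.8%), against 37.5% of the 769 features, and its median deviation from the mutant mean was -0.05.

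**Figure D3:**
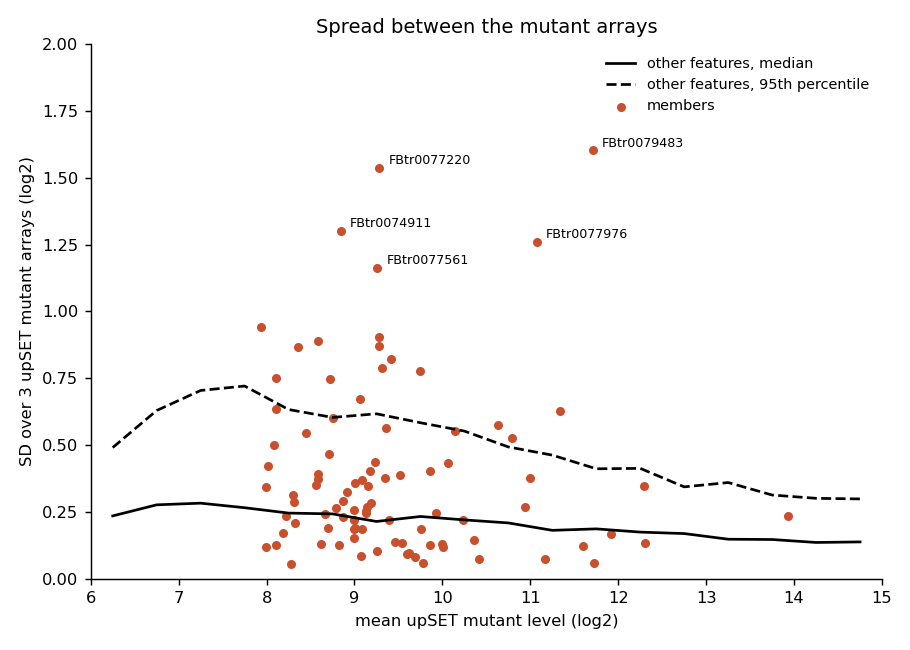
SD over the 3 upSET mutant arrays against the mean mutant level, both on the log2 scale, for the 92 members (points), with the median and the 95th percentile of the other features in bins of level (lines). Members with SDs above 1 are labelled, and 19 of 92 exceed 95% of the features within 0.25 of their level.

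The rule was also applied to 2 wild-type and 2 mutant arrays, and the remaining array of each genotype was read. The 9 possible choices, which share arrays and are not independent, gave 100 to 113 transcripts each, of which 87 to 90 were members. On the choosing arrays the median difference was 2.78 to 3.01, and on the arrays left out it was 2.69 to 3.13. Over the 9 choices 935 of 944 readings on the left-out arrays were above 0. Of the 944, 796 were of members, which the rule on all 6 arrays already places above 0. The left-out difference was at least 2 for 75.2% to 88.1% of the transcripts chosen. The readings repeat 148 transcripts on the same 6 arrays, and no like share was taken over all features or all low ones. Whether the arrays were normalised together was not found in the labels. These counts are therefore a description. Transcript by transcript the left-out difference was smaller than the choosing one in 7 of the 9 choices, by a median of at most 0.31.

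The 9 readings that were not above 0 came from 7 transcripts outside the set, as they must, since the rule admits no member whose genotypes overlap. FBtr0088591, described above, was among them. With mutant replicate 2 left out it read 0.29, 0.40 and -0.37 as wild-type replicates 1, 2 and 3 were left out with it, after 5.83 on the choosing arrays in the last case. FBtr0079482, with wild-type values of 5.77, 5.95 and 6.61 and mutant values of 9.03, 6.25 and 8.37, read 0.48, 0.30 and -0.36 in the same choices. Both were below 0 where the lowest mutant array met the highest wild-type array. Members meet the wild-type limit and the condition of no overlap on any choice of arrays, so only the minimum difference could drop them. Of the members 79 were chosen in all 9 choices. The other 13 had differences of 2.01 to 2.85 with all 6 arrays, and 11 of the 13 were below 2.5.

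Among transcripts chosen without wild-type replicate 1, 85.8% to 88.1% were below 7 on it, against 92.2% to 95.05% on replicates 2 and 3 when those were left out. Without it 107 features met the rule, 17 of them outside the 92, where leaving out replicate 2 or 3 added 10 or 11. Of these 17, 15 were called in limma with all 6 arrays, where 8.05% of all features were called higher. Nothing is read from that count, because the rule used the same contrast on most of the same arrays. The following 3 examples were picked after their values were seen. FBtr0081578 was at 7.09, 6.52 and 6.75 in the wild type and at 12.92, 13.31 and 13.61 in the mutant. FBtr0080690 was at 7.66, 5.72 and 6.74 and then at 12.58, 13.38 and 12.58. FBtr0089324 was at 9.07, 6.12 and 6.83 and then at 11.30, 10.15 and 9.62. The first 2 gained more than nearly all members and were outside the set by a single wild-type value.

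**Figure D4:**
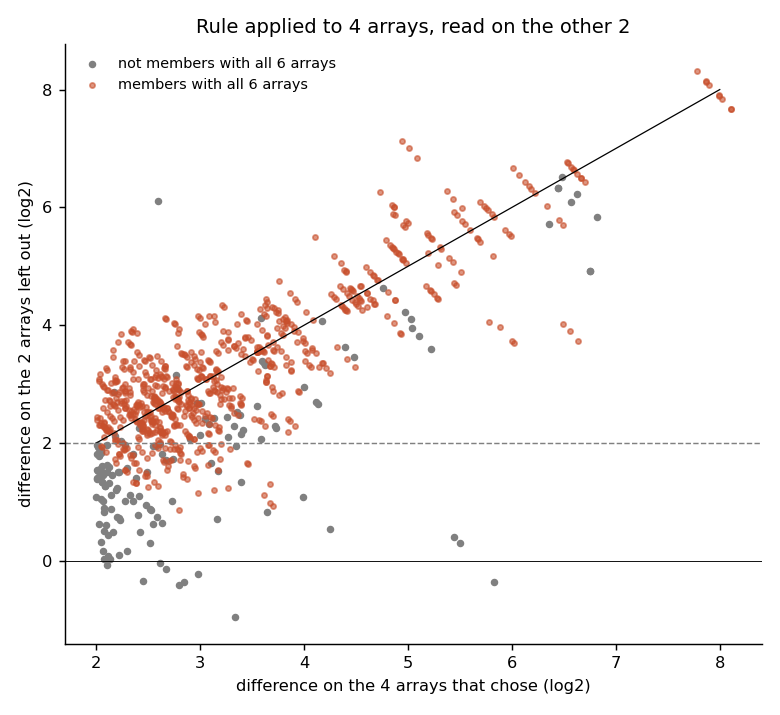
Difference between mutant and wild type on the 2 arrays left out against the difference on the 4 arrays that chose the transcript, both on the log2 scale, for 944 readings in 9 choices. Orange points are members with all 6 arrays and grey points are not. The rule already places every orange point above 0. The solid line marks equality, the dashed line a left-out difference of 2, and 935 readings lie above 0.

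Some members had consecutive or nearly consecutive identifiers. FlyBase numbers tend to follow position along a chromosome, but no coordinates were used here, so consecutive identifiers may be isoforms of 1 gene, neighbouring genes or neither, and shared probe sequence was not looked at. Within 10 identifier numbers of another member lay 18 of the 92 members (19.6%), while 418 of the 4135 other low features (10.1%) lay as close to a member. Within 5 numbers the shares were 15.2% and 5.97%, and within 20 they were 28.3% and 17.6%. The 18 members formed 6 pairs and 2 groups of 3.

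Not every feature within these groups met the rule. A feature between members that met it would have been counted as a member, so the values below are partly set by the rule. Between the members of the 8 groups lay 16 other features, of which 8 were below 7 on all 6 arrays, 1 was called higher and 1 was called lower. FBtr0087552 was at 5.84, 5.97 and 5.90 in the wild type and at 10.51, 10.23 and 10.33 in the mutant. The 4 features that separate it from FBtr0087557 and FBtr0087558 stayed between 5.58 and 6.53 on every array. On the other side of that pair FBtr0087559 went from a mean of 9.73 to 12.70, a difference of 2.97 from a level above the limit.

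A like arrangement surrounded FBtr0072048. FBtr0072049 was at 6.31, 6.77 and 6.16 in the wild type and at 9.53, 9.70 and 9.56 in the mutant. FBtr0072052 was at 5.86, 5.68 and 5.52 and then at 8.05, 8.38 and 8.14. The 2 features between them had differences of -0.30 and 0.11. Immediately before the group FBtr0072047 rose from a mean of 8.52 to 13.06, the largest difference, 4.54, of any feature that flanked a member without being one.

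In other groups the members resembled each other in level. FBtr0070532 was at 6.27, 6.26 and 6.51 in the wild type and at 9.17, 9.39 and 8.86 in the mutant, and FBtr0070535 was at 6.65, 6.28 and 6.85 and then at 9.14, 8.83 and 8.999. FBtr0070534, between them, had mutant values of 9.12, 9.57 and 9.52 and was kept out by a wild-type value of 7.05 in replicate 1. FBtr0080066 and FBtr0080067 had differences of 2.41 and 2.76, FBtr0074833 and FBtr0074834 of 2.49 and 2.87, and FBtr0081451 and FBtr0081452 of 2.64 and 2.71. In each of these 3 pairs the 2 mutant means were within 1 of each other. The mutant means of all members had quartiles of 8.70 and 9.86, so many other pairs of members would lie as close.

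The last groups combined unlike features. FBtr0079483 shared its low reading in mutant replicate 2 with its neighbour FBtr0079482, whereas FBtr0079474, at 9.51, 9.53 and 9.14 in the mutant, did not. FBtr0089599 and FBtr0089607, with differences of 2.37 and 2.48, enclosed 5 features at mean wild-type levels above 8 whose differences did not pass in limma. An order of the arrays was also shared by FBtr0083972 and FBtr0083971. The member FBtr0083972 was at 6.99, 6.02 and 5.55 in the wild type and at 9.50, 9.41 and 8.29 in the mutant, and FBtr0083971 was at 8.38, 6.52 and 5.92 and then at 9.39, 9.003 and 8.15, so both were highest in replicate 1 and lowest in replicate 3 of each genotype.

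Over all members the features next to them in identifier order moved up somewhat more often than the rest of the table. Of 173 flanking features that were not members, 20 were called higher in limma (11.6%) and 10 lower (5.78%), where 7.503% and 7.35% of all features outside the set were called. A difference of at least 1 was seen in 17 of the 173 (9.83%), against 4.17% of the features outside the set. The median difference of the flanking features was 0.07. These shares are descriptions without a test. Of the 173 flanking features 73 were themselves low in the wild type, as were 27.3% of all features. No share was taken over features of like level.

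**Figure D5:**
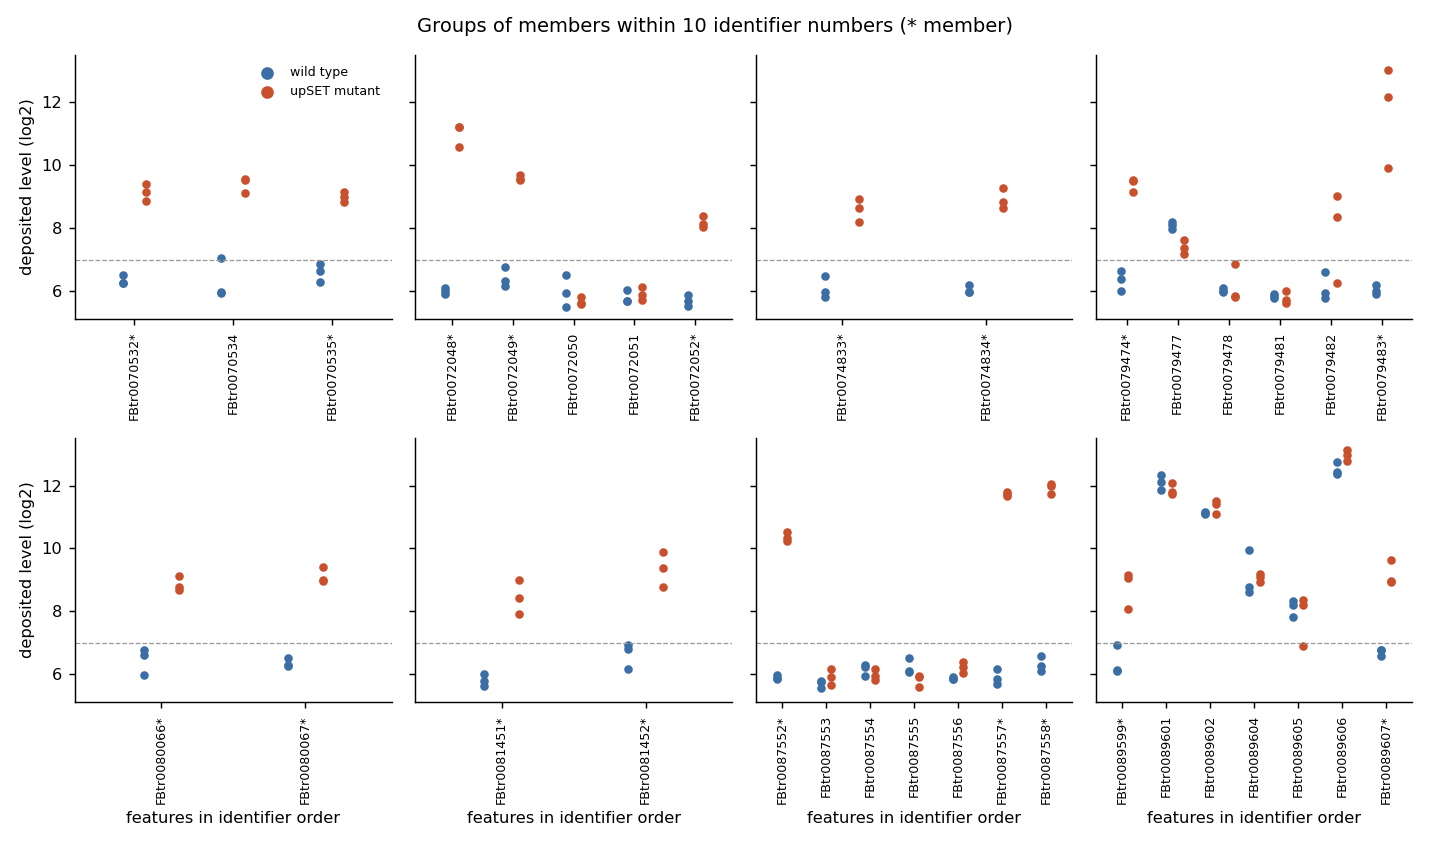
Deposited log2 level on each of the 3 wild-type (blue) and 3 upSET mutant (orange) arrays for the 8 groups of members within 10 identifier numbers, with all features between them in identifier order, members marked with an asterisk and a dashed line at 7. Of the 16 features between members, all outside the set by definition, 8 stay below 7 on all 6 arrays.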

How the data were processed

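Each of 6 total RNA samples from ovaries was hybridised, with Cy3 as the label, to a NimbleGen array of 1 colour, and NimbleScan 2.4 read the images, per the labels' protocols. RMA is the tool named in the submitters' processing notes; its settings and the array's annotation release were not found in the labels. The deposited values are log2 intensities, a scale inferred from their range. Sample titles gave the genotype and replicate number.

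The rule was applied to the deposited values with pandas 2.3.3. For the background share of calls, limma 3.58.1 (R 4.3.3; lmFit, eBayes, no filter, no block) was run on all 15473 features, with two-sided p-values adjusted by Benjamini-Hochberg and a threshold of 0.05; the fit was tested on simulated data. Differences are mutant minus wild type. The members, lists and tests were chosen with earlier results of these data known. Transcripts were named by a fixed rule: the 20 largest differences, those nearest each limit, the 5 largest mutant SDs and members within 10 identifier numbers of each other; others were picked after their values were seen. Identifiers were matched to a RefSeq gene table of Release 6 plus ISO1 MT. The gene lists could not be read, because no member had a name. The cell type markers could not be looked up, because a name was found for only 44 of the 15473 features. Alternatives were other limits, quantile normalization, median centring, other variance settings, a filter on dim features and leaving out each array. No array was left out of the values above. The number of arrays limits the precision.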

Additional observations from a re-analysis of the deposited data

How the results depend on the processing

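The rule gave 92 transcripts as deposited, 85 after quantile normalization and 87 after median centring, all of them among the 92. A wild-type limit of 6.5 gave 51, a limit of 7.5 gave 117, a limit on the wild-type mean 115, a minimum difference of 1.5 gave 134 and a minimum of 3 gave 42. Leaving out 1 array at a time gave between 93 and 107, with 87 to 91 of the 92 kept, and a median difference of 2.82 to 2.97. Without an array a member can be lost only through the minimum difference, so the number kept and the median are partly set by the rule. Under the scalings that median was 2.77 and 2.80, where 2.84 was found as deposited. In limma 90 to 92 of the members were called without each array, where 6.09% to 7.17% of all features were called higher. At an adjusted p of 0.01, 89 members were called, where 728 features (4.70%) were called higher in place of 1246. Nothing is read from these counts, because the rule used the same contrast. The 3 members not called at 0.01 were FBtr0077220, FBtr0074911 and FBtr0081031. At 0.05, FBtr0077220 lost its call without replicate 2 or 3 of either genotype (limma adjusted p 0.055 to 0.084), and FBtr0074911 without wild-type replicate 2 or 3 (0.054 and 0.063). Over the 50 named transcripts 442 values stayed on their side of the threshold, 6 fell below it and 2 passed it, and none changed sign. Of the 50, 43 were members, which the rule chose for a gain on the same arrays. Nothing is read from these counts either. Deviations from the group means were nearly uncorrelated between arrays of the same number (r across features -0.036, -0.058 and -0.026); with the replicate block 92 members and 1047 features were called higher. Signal over background may limit all values near the bottom of the scale and was not measured.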
